A study of Mus musculus with 8 samples.

Results

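Granzymes A, K and M, perforin and the genes that package granzymes or protect the cell from them were followed through single-cell transcriptomes of leukocytes from mouse melanoma after adoptive transfer of engineered T cells. The members were 10 of the 27998 genes in the deposited table, taken by symbol: the granzymes Gzma, Gzmk and Gzmm, the pore-forming gene Prf1, the granzyme inhibitors Serpinb9, Serpinb9b and Serpinb6b, and the granule genes Nkg7, Ctsw and Srgn. Each symbol matched 1 row.

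Cytotoxic T cells and NK cells store granzymes, which are serine proteases, in secretory granules on a matrix of the proteoglycan serglycin, encoded by Srgn. On contact with a target the granule fuses with the plasma membrane, perforin opens pores in the target membrane, and granzymes enter and cleave their substrates. Killer cells also make cytosolic serpins, of which Serpinb9 blocks granzyme B, and these are thought to shield the cell from protease that leaks out of its own granules. In mice, Gzma is a leading granzyme transcript of NK cells, and Gzmk is known as a granzyme of less differentiated memory-type CD8 T cells.

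The tissue was subcutaneous B16-OVA, a melanoma line that carries the ovalbumin antigen, in C57BL/6 mice, and the cells transferred were OT1, CD8 T cells with a transgenic receptor for an ovalbumin peptide. The transfer was made without lymphodepletion, so the hosts kept their own lymphocytes. Non-treated tumors were taken on day 5. Untransduced OT1 cells were transferred for the tumors of days 5 and 12. At day 12 other mice had received OT1 cells secreting PD1d, a PD-1 decoy fused to an antibody Fc part, together with IL-2v, an IL-2 variant that does not bind CD25 (PD1d/IL-2v), or together with IL-33 (PD1d/IL-33). The orthogonal group received PD1d, IL-2v and IL-33 together (PD1d/IL-2v/IL-33), which in the study's design means a mixture of the cells of both other kinds, and was sampled on days 5, 12 and 26 after transfer. All engineered groups thus carried PD1d, and none carried a cytokine without it. Untransduced OT1 cells were added to even out the number of transduced cells, so the engineered groups also held OT1 cells without PD1d. The labels give no age of the mice.

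Each condition and day was 1 library, made from tumors that were pooled before the CD45+ sort, which was enriched for CD8+ cells. No difference between libraries can therefore be set against the spread between animals, and the intervals given throughout are exact 95% intervals that cover counting error alone. The 8 libraries held 15700 barcodes and 98669511 UMIs, between 1387032 and 24917112 per library, and 12828 barcodes passed the cell filter. The deposited list of libraries also gives 5 labels, called run labels here. The sample labels do not say what they stand for. Untransduced and orthogonal day 12 share a label, as do PD1d/IL-2v and PD1d/IL-33, and non-treated and orthogonal day 26. Of the cell barcodes, 143 occurred in more than 1 library.

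Cells were gated on raw UMIs of markers that are not members. The CD8 T gate asked for a Cd3d or Cd3e UMI and a Cd8a or Cd8b1 UMI without Cd4. It held 5081 cells: 78 non-treated, 505 untransduced day 5, 42 untransduced day 12, 573 PD1d/IL-2v, 366 PD1d/IL-33, and 498, 727 and 2292 orthogonal cells on days 5, 12 and 26. The NK gate asked for at least 2 UMIs of Ncr1 and Klrb1c without Cd3d, Cd3e, Cd8b1 or Cd4, and held 2339 cells. There were 1199 CD4 T, 1178 myeloid and 159 dendritic cells (DC), and 2872 cells met no gate. Levels are UMIs of a gene scaled to 1000000 UMIs of the gate in that library (CPM). The summed NK markers that the gate had not used stood at 372 to 708 CPM in the CD8 T gates and at 1700.5 to 3550.1 CPM in the NK gates. The summed myeloid markers stood at 172 to 285 CPM in the CD8 T gates and at 6598 to 21895 CPM in the myeloid gates. The CD8 T gate mixes transferred OT1 cells with host CD8 T cells, which cannot be told apart in these counts.

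Of the members, 4 lie as 2 pairs of relatives on chromosome 13 and are shown by their promoters. Gzma and Gzmk differed in the gate where they were highest. Serpinb9 and Serpinb9b were both higher in NK than in CD8 T cells, and their CD8 T levels over the 8 libraries had a Pearson correlation of 0.70. The correlation was 0.50 over the 6 libraries left without non-treated and untransduced day 12, which held 1 Serpinb9b UMI each in CD8 T cells. On GRCm38.p6, Gzma spans chr13:113093824-113100981 and Gzmk chr13:113171630-113180965, both on the minus strand. Serpinb9 spans chr13:32997061-33017955 and Serpinb9b chr13:33027414-33040588, both on the plus strand, next to Serpinb6b at chr13:32956811-32979067. The RefSeq promoter windows run from 250 bases before to 50 bases after the start and are given 5′ to 3′ on the gene's strand. For Serpinb9 that start lies inside the span given above and not at its first base, so the window falls within the span. Capitals mark a T-box core (GTGTGA, or TCACAC on the other strand) or a RUNX core (TGTGGT, or ACCACA on the other strand), the letters bound by 2 families of factors of the cytotoxic programme. No printed window held both motifs, so none overlapped.
Gzma, chr13:113100932-113101231, minus strand: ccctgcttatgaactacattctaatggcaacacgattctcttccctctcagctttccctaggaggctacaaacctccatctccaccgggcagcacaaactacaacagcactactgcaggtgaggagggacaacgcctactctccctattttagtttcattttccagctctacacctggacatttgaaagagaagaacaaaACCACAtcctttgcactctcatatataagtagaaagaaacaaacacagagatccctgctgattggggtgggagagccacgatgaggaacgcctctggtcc
Gzmk, chr13:113180916-113181215, minus strand: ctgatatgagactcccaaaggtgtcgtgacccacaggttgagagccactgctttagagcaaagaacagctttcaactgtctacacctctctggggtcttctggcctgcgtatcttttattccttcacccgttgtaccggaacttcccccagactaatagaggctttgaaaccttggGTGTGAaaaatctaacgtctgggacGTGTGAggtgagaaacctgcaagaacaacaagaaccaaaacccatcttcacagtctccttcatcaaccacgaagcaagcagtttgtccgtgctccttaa
Serpinb9, chr13:33004291-33004590, plus strand: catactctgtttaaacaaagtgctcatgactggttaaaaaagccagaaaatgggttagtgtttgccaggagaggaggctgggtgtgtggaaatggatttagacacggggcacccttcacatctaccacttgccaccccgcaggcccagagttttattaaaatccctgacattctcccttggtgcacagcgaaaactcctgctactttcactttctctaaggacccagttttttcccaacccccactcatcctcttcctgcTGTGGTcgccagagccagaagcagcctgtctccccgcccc
Serpinb9b, chr13:33027164-33027463, plus strand: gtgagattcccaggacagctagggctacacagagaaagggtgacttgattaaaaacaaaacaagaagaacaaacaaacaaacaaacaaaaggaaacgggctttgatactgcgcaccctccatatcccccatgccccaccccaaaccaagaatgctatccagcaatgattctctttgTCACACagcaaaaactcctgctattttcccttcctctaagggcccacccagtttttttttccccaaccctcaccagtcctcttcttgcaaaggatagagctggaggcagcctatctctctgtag
The Gzma window held 1 RUNX core and no T-box core, and the Gzmk window held 2 T-box cores and no RUNX core. The Serpinb9 window held 1 RUNX core, and the Serpinb9b window 1 T-box core. Of all 32851 promoter windows in the same table, 14.5% held the T-box core and 16.8% the RUNX core, so these matches are common and are given as a description. The Serpinb9 and Serpinb9b windows had 67.4% of 276 aligned bases in common, against 59.8% of 261 for Gzma and Gzmk and 59.4% of 254 for Serpinb9 and Serpinb6b. Of the other members, Prf1 (chr10:61297751-61304684), Gzmm (chr10:79689020-79695261), Nkg7 (chr7:43437138-43438246) and Srgn (chr10:62493833-62527445) also had an entry, and Ctsw lies at chr19:5465043-5468628.

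The members were first placed in the gates. Gzma was a transcript of NK cells above all, at 5395 to 11538 CPM in the NK gates of the 8 libraries and 79.9 to 1995 CPM in the CD8 T gates. Gzmk was placed the other way, at 88.2 to 681 CPM in CD8 T cells and 12.1 to 75.6 CPM in NK cells. Within each library the Gzma level was higher in NK than in CD8 T cells and the Gzmk level higher in CD8 T than in NK cells, 8 of 8 libraries in both cases. Gzmm followed Gzmk, with 6.53 to 93.9 CPM in CD8 T cells and at most 9.41 CPM in NK cells, where 3 libraries held no UMI of it.

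Prf1 was at 507 to 796 CPM in NK cells and 75.2 to 149 CPM in CD8 T cells, and did not overlap between the gates. The share of all genes whose levels part NK from CD8 T cells in this way is not given here. The 3 inhibitors were also higher in NK cells when compared within a library, with Serpinb9 at 407 to 955 CPM against 84.9 to 215 CPM in CD8 T cells. Across libraries the ranges of the other inhibitors overlapped between the gates. Serpinb6b was at 407 to 991 CPM in NK cells and 122 to 519.8 CPM in CD8 T cells. Serpinb9b was at 12.1 to 182 CPM in NK cells and 2.18 to 37.9 CPM in CD8 T cells. Srgn was in every gate and had a pooled level of 3439 CPM in myeloid cells, above its 915 to 1391 CPM in CD8 T cells. In the myeloid gate Gzma had a pooled level of 11.5 CPM. The DC gate, with 159 cells, had pooled levels of 175 CPM for Serpinb9 and 210.4 CPM for Serpinb6b, but 6.07 CPM for Serpinb9b. By library, Serpinb9 in DC ran from 0 to 539.8 CPM and Serpinb6b from 53.1 to 505 CPM, each highest in orthogonal day 5.

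**Figure D1:**
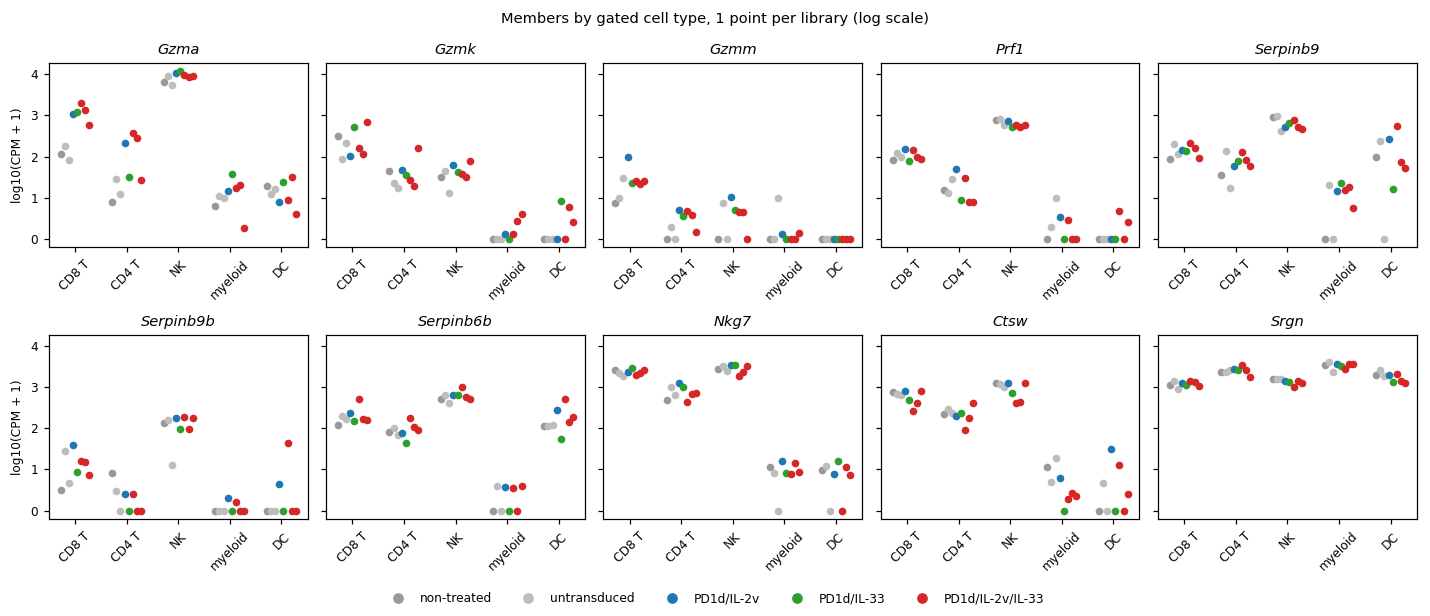
Level of each member, in CPM of summed UMIs on a log scale, in the 5 gates, with each point a library. Gzma, Prf1 and the serpins sat higher in NK than in CD8 T cells, and Gzmk and Gzmm sat higher in CD8 T cells.

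The share of a gene's UMIs that each gate supplied depended on the cells in the library, which the CD8-enriching sort had shaped, as well as on their level. NK cells supplied between 56.8% and 86.8% of the Gzma UMIs in 7 libraries and 23.9% in orthogonal day 26, where they were 2.02% of the cells. In that library the CD8 T gate supplied 65.7% of the Gzma UMIs, against 1.43% to 26.3% elsewhere. For Prf1 the same library stood apart, with 11.9% of UMIs from NK cells and 79% from CD8 T cells, against 50.1% to 74.2% from NK cells in the others. Most Gzmk came from CD8 T cells in all 8 libraries, at 63.3% to 92.1%.

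Among CD8 T cells, Gzma was higher in the engineered transfers than in the controls. It was at 115 CPM (86.5 to 151) in non-treated tumors, 181 (169 to 193) in untransduced day 5 and 79.9 (50.1 to 121) in untransduced day 12. At day 12 it was at 1079 CPM (1052 to 1106) with PD1d/IL-2v, 1207 (1162 to 1254) with PD1d/IL-33 and 1359.7 (1332 to 1387) in the orthogonal group. The orthogonal group had 1995 CPM (1953 to 2037) on day 5 and 580.3 CPM (568 to 593) on day 26. All 5 engineered libraries were above all 3 controls, and in the order of levels only non-treated and untransduced day 12 had intervals that overlapped. The share of all genes that split the libraries in this way is not given here.

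Gzma UMIs sat in few cells. The 10% of CD8 T cells with the most held 60.6% of the gate's Gzma UMIs in orthogonal day 5 and 73.2% to 100% in the other 7 libraries. In untransduced day 12, 1 cell held 11 of the 22 Gzma UMIs, and the level without it was 40.6 CPM. Part of these cells carried an NK receptor transcript. Cells with a UMI of Ncr1 or Klrb1c were 1.28% to 14.6% of the CD8 T gate, and held 66.9% of its Gzma UMIs in untransduced day 5 (29 cells), 41% in PD1d/IL-2v (74 cells), 38.5% in orthogonal day 12 (106 cells) and 4.04% in PD1d/IL-33 (7 cells). Without them, Gzma stood at 63.8 CPM (56.7 to 71.4) in untransduced day 5, 737 in PD1d/IL-2v, 1177 in PD1d/IL-33, and 1803, 1048 and 545 CPM in orthogonal days 5, 12 and 26. The engineered libraries stayed above the controls, which were then at 45.4 to 117 CPM, and PD1d/IL-33 stood above the orthogonal group at day 12. Whether these cells were T cells with NK receptors or doublets was not tested.

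Gzmk did not follow the split between engineered and control libraries. Its level was highest in orthogonal day 26, at 681 CPM (668 to 694), and in PD1d/IL-33, at 505 (476 to 536). Non-treated tumors had 311 CPM (263 to 367), untransduced day 12 had 214 (163 to 276) and orthogonal day 5 had 159.8 (148 to 172). The lowest were orthogonal day 12 at 115 (107 to 123), PD1d/IL-2v at 103 (94.4 to 111) and untransduced day 5 at 88.2 CPM (80.2 to 96.9). The intervals overlapped between neighbours within the last 3 libraries and within the middle 3.

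Gzmm, a granzyme that cleaves after methionine and leucine, was at 93.9 CPM (86.1 to 102) with PD1d/IL-2v. The other 7 libraries had 6.53 to 29 CPM, the upper end being untransduced day 12, whose interval ran from 12.5 to 57.2. PD1d/IL-2v was thus alone in carrying this transcript at a level whose interval lay above all others.

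Prf1 spanned a narrower range in the CD8 T gate. It was at 149 CPM with PD1d/IL-2v, 142 in orthogonal day 5 and 120.0 in untransduced day 5. The other libraries had 98 (untransduced day 12), 94.1 (orthogonal day 12), 86.3 (orthogonal day 26), 80.6 (non-treated) and 75.2 CPM (PD1d/IL-33). Each of these 5 overlapped its neighbour in order.

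Of the inhibitors, Serpinb6b had the clearest outlying library. It was at 519.8 CPM in orthogonal day 5 and between 122 (non-treated) and 229 CPM (PD1d/IL-2v) in the other 7. Serpinb9 was at 215 CPM in orthogonal day 5, 197 in untransduced day 5, 164 in orthogonal day 12, 146 in PD1d/IL-2v, 138 in PD1d/IL-33, 113 in untransduced day 12, 90.6 in orthogonal day 26 and 84.9 in non-treated tumors. Serpinb9b was low everywhere, with 37.9 CPM in PD1d/IL-2v, 27.2 in untransduced day 5 and 6.55 to 15 in the other 4 libraries that held more than 1 UMI. Non-treated and untransduced day 12 held 1 UMI each. In orthogonal day 26, 32 cells with an NK receptor UMI held 36.7% of the Serpinb9b UMIs of the gate, and the level without them was 4.21 CPM. Serpinb9 and Serpinb9b are related in sequence, and how reads that match both were counted was not tested.

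Nkg7, a membrane protein of granules needed for their release, was at 1804 to 2829 CPM in all 8 libraries. Srgn was at 915 to 1391 CPM. Ctsw, a papain-family protease of NK and CD8 T cells, was at 262 CPM in orthogonal day 5, 418 in orthogonal day 12 and 472 in PD1d/IL-33, below the 632 to 789 CPM of the other 5 libraries. The summed T cell markers that the gate had not used (Cd3g, Thy1, Lck and Cd5) were also lowest in these 3 libraries, at 1878 to 2488 CPM against 2665 to 3596 CPM, and their part in the Ctsw levels was not tested.

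**Figure D2:**
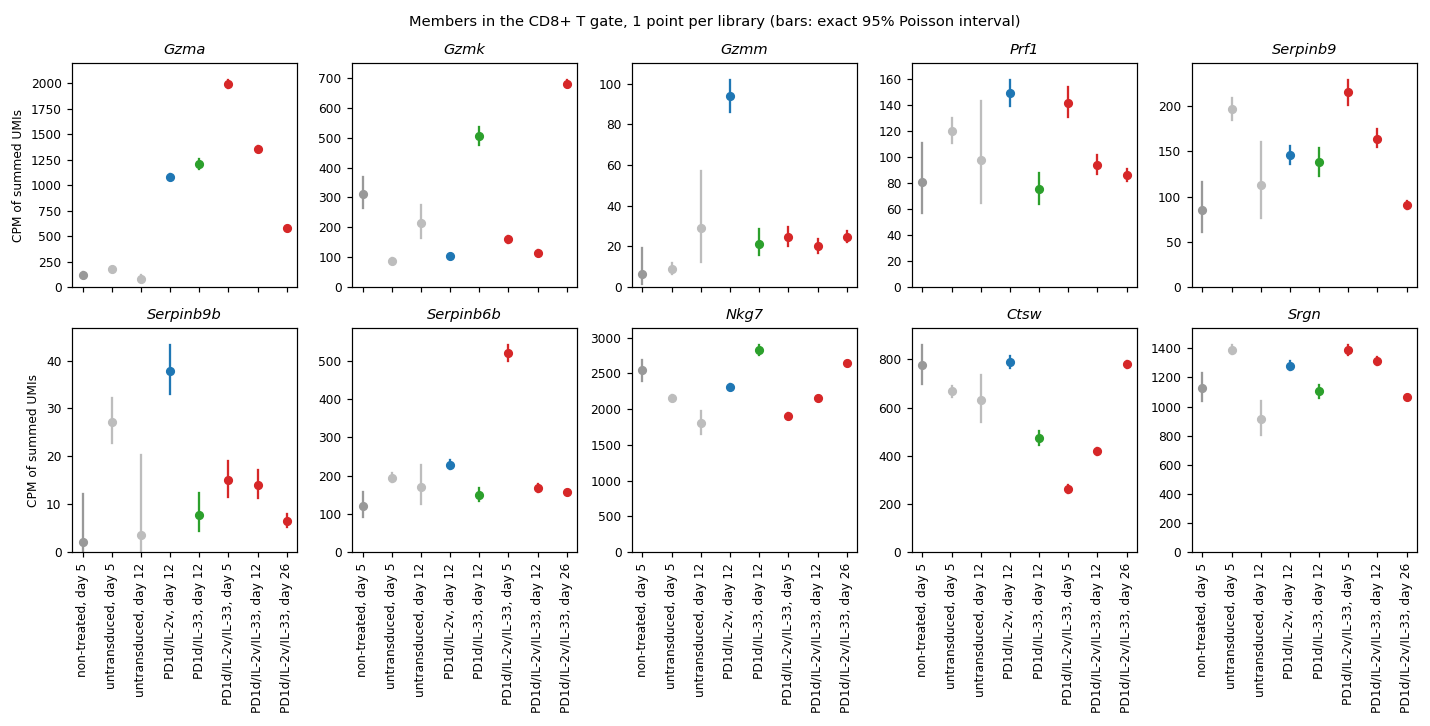
Level of each member in CD8 T cells, in CPM, in each of the 8 libraries, with exact 95% Poisson intervals. Gzma is high in the 5 engineered libraries, Gzmk in orthogonal day 26 and PD1d/IL-33, Gzmm in PD1d/IL-2v, and Serpinb6b in orthogonal day 5.

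The libraries were compared in pairs as the log2 ratio of CPM after 10 CPM was added to each, which understates the change of genes at low levels. A gene was measured where the pair of libraries held 50 UMIs of it or more, and counted as past 2-fold where its log2 ratio was at least 1 in size. The 8 comparisons share libraries, orthogonal day 12 being in 5 of them, and so do not stand as separate evidence. In CD8 T cells the median of all genes lay between -0.13 and 0.12, and TMM factors, another scaling, brought it to within 0.03 of 0.

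The first comparison set the orthogonal library against the untransduced OT1 library at day 5. These 2 libraries had different run labels, so treatment and whatever the label stands for cannot be told apart here. In all other comparisons but orthogonal over untransduced at day 12 and PD1d/IL-33 over PD1d/IL-2v, the libraries also differed in run label. Treatment or day cannot be told apart from run label in those either. Gzma had a log2 ratio of 3.39 (3.30 to 3.49) and Serpinb6b of 1.37 (1.27 to 1.48), and Ctsw one of -1.32 (-1.41 to -1.23). Gzmk stood at 0.79. Gzmm stood at 0.87, a value that reached 1.38 with 1 CPM added and was 0.45 under the cell filter of a later experiment of the study, while Prf1 (0.23), Serpinb9 (0.12), Nkg7 (-0.18) and Srgn (-0.01) were close to 0. With 2 of 10 members past 2-fold higher and 1 lower, the members stood beside 1.7% of all measured genes higher and 1.46% lower (2.42% and 0.948% with TMM factors). Without cycling cells the Serpinb6b ratio was 1.55. Their median was 0.17, against -0.09 for all genes. Without cells that had an NK receptor UMI the Gzma ratio was 4.62.

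At day 12 the untransduced library had 42 CD8 T cells. Gzma had a log2 ratio of 3.93 (3.39 to 4.51) in the orthogonal group over it. It was the 1 member of 10 past 2-fold higher, where 5.29% of all genes were, and no member was past 2-fold lower, where 2.49% were. Gzmk was at -0.84 (-1.21 to -0.46) and Prf1 at -0.05 (-0.56 to 0.49), the latter an interval too wide to place it. Gzmk was at -0.25 without cycling cells, and at 0.35 when set against untransduced day 5 in place of day 12.

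The orthogonal group was then set against its parts at day 12. Over PD1d/IL-2v, Gzmm had a log2 ratio of -1.79 (-1.99 to -1.59) and was the 1 member past 2-fold, beside 1.05% of all genes higher and 1.02% lower (1.53% and 0.714% with TMM factors). Serpinb9b was just inside the threshold at -0.99 (-1.22 to -0.76) and Ctsw was at -0.90. Gzma (0.33) and Gzmk (0.15) differed less. Over PD1d/IL-33, Gzmk was the 1 member past 2-fold, at -2.05 (-2.17 to -1.92), beside 1.22% of all genes higher and 0.511% lower (1.53% and 0.357% with TMM factors). The Gzma ratio of 0.17 (0.11 to 0.23) changed sign to -0.17 without the cells that had an NK receptor UMI.

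PD1d/IL-33 and PD1d/IL-2v, which shared a run label, differed in which granzymes their CD8 T cells carried. Gzmk had a log2 ratio of 2.2 (2.06 to 2.33) in PD1d/IL-33 over PD1d/IL-2v, Gzmm one of -1.73 and Serpinb9b one of -1.43 (-1.76 to -1.06). Prf1 was at -0.90, Ctsw at -0.73 and Gzma at 0.16. Thus 1 of 10 members was past 2-fold higher, beside 1.58% of all genes, and 2 were lower, beside 1.46%. Serpinb9b was inside the threshold under the later cell filter (-0.43) and without cycling cells (-0.90). Of these 2 libraries, orthogonal day 12 lay nearer PD1d/IL-2v in Gzmk and nearer PD1d/IL-33 in Gzmm. Both of its levels, 115 CPM for Gzmk and 20 CPM for Gzmm, were also within the range of the control libraries. That range was 88.2 to 311 CPM for Gzmk and 6.53 to 29 CPM for Gzmm.

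Over time in the orthogonal group, Serpinb6b was lower on day 12 than on day 5, with a log2 ratio of -1.57 (-1.67 to -1.48). It was the 1 member past 2-fold lower, beside 0.27% of all genes, and none was higher, beside 0.439% (0.146% lower and 0.63% higher with TMM factors). Gzma was at -0.55, Prf1 at -0.55 and Ctsw at 0.66. From day 12 to day 26, Gzma and Gzmk parted, with log2 ratios of -1.21 (-1.26 to -1.17) and 2.47 (2.37 to 2.57). These were the only members past 2-fold, 1 in each direction, beside 1.5% of all genes higher and 1.66% lower (0.869% and 2.17% with TMM factors). Without cells with an NK receptor UMI the Gzma ratio was -0.93, inside the threshold. Ctsw was at 0.88 and Serpinb9 at -0.79.

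Between the control libraries of day 5, untransduced over non-treated, Gzmk had a log2 ratio of -1.71 (-1.97 to -1.44). Serpinb9 was at 1.12 (0.70 to 1.56) and Serpinb9b at 1.61 (0.73 to 1.94), the latter against 1 UMI in non-treated tumors. Under the strict CD8 gate Serpinb9 was at 0.93. Of 9 members measured, 2 were past 2-fold higher and 1 lower, beside 1.54% and 0.459% of all genes. Gzma was at 0.60 and turned to -0.78 without cells that had an NK receptor UMI.

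**Figure D3:**
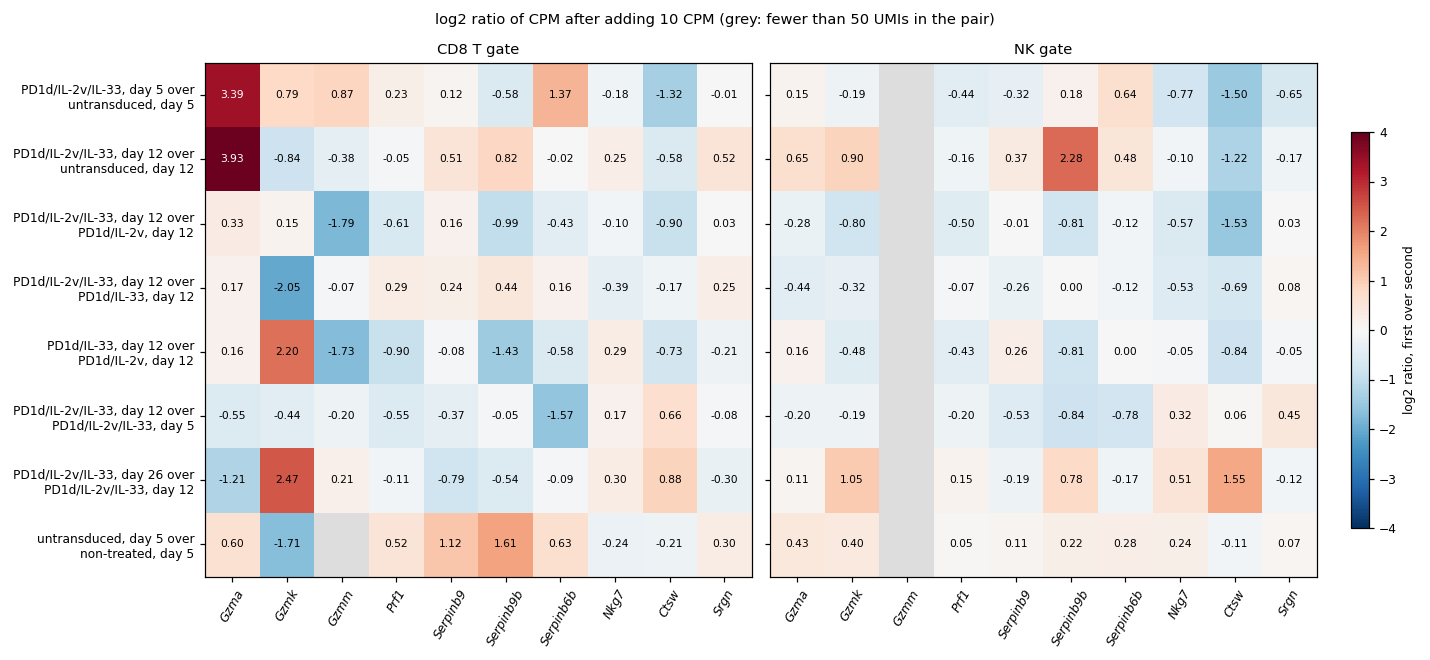
Log2 ratio of CPM after adding 10 CPM, for each member in the 8 comparisons of libraries, in CD8 T cells and in NK cells. In CD8 T cells the Gzma ratio is above 1 in both comparisons of the orthogonal group with untransduced OT1. The Gzmk ratio is above 1 or below -1 in 4 comparisons.

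NK cells showed whether the members moved in the other compartment as well. Gzma in NK cells had log2 ratios between -0.44 and 0.65 in the 8 comparisons, where the NK gate held 52 to 800 cells, so the ratios of 3.39 and 3.93 over untransduced OT1 in CD8 T cells stood beside 0.15 and 0.65 in NK cells. The median of all genes in NK cells lay between -0.19 and 0.21. Ctsw differed more. It was at 410.4 CPM in orthogonal day 5, 428 in orthogonal day 12 and 695 CPM in PD1d/IL-33, against 1008 to 1276 CPM in the other 5 libraries, the same 3 libraries that were lowest in CD8 T cells. The NK gates of orthogonal days 5 and 12 also had the lowest summed NK markers, at 2338 and 1700.5 CPM against 2626 to 3550.1 CPM, and the highest shares of ribosomal UMIs, at 30.3% and 34.8% against 23.3% to 27.1%. The part of these in the Ctsw levels was not tested. The log2 ratio of orthogonal over untransduced was -1.50 on day 5 and -1.22 on day 12, the latter within a run label, and that of day 26 over day 12 was 1.55 (1.39 to 1.71). In CD4 T cells, Ctsw was also lowest in orthogonal days 5 and 12, at 91.4 and 177 CPM, against 195 to 399 CPM elsewhere, but the interval of day 12 overlapped that of PD1d/IL-2v and PD1d/IL-33 was not low, at 234 CPM. Serpinb6b in NK cells was highest in orthogonal day 5 as well, at 991 CPM against 407 to 633 CPM in the other 7. In CD4 T cells Serpinb6b was also highest in that library, at 177 CPM against 42.1 to 105 CPM elsewhere, and so it was in DC. Its height in orthogonal day 5 was thus not confined to CD8 T and NK cells. No other library shared the run label of orthogonal day 5.

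Gzma in CD4 T cells was at 377 CPM in orthogonal day 5, 279.7 in orthogonal day 12 and 210.3 in PD1d/IL-2v, and at 7.08 to 31.5 CPM in the other 5. These levels rested on few cells, since 1 cell held 53.1%, 42.2% and 40.2% of the Gzma UMIs in the first 3, and without it they were at 179, 163 and 127 CPM. Gzmk was at 162 CPM in orthogonal day 26 and 16.6 to 45.1 CPM elsewhere. Gzmk was higher in the CD4 T cells without a UMI of Foxp3, the factor of regulatory T cells. Cells with one had at most 14.5 CPM in any library. Those cells were 10 in non-treated, 16 in untransduced day 12, 15 in PD1d/IL-33 and 26 in orthogonal day 12. Their upper limits there were 47.5, 33.4, 41.5 and 18.4 CPM, and the intervals overlapped those of cells without a Foxp3 UMI. In cells without a Foxp3 UMI, Gzmk was at 249 CPM (223 to 278) in orthogonal day 26 and 195 CPM (147 to 253) in PD1d/IL-2v. In PD1d/IL-2v, 123 of 171 CD4 T cells had a Foxp3 UMI. In the other 6 libraries, Gzmk in cells without one was at 25.4 to 94.4 CPM. Gzmb, by contrast, was at 208 to 1638 CPM in cells with a Foxp3 UMI and at 57.1 to 771 CPM in those without. It was higher in the former in all 8 libraries, but the intervals overlapped in PD1d/IL-2v and in untransduced day 12. The share of all genes that part these cells in this way is not given here. Srgn was at 1784 to 3492 CPM.

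Gzma and Gzmk were next counted in single CD8 T cells, each thinned to 2000 UMIs so that cells had equal depth. Cells with a UMI of both were 22.7% (18.5 to 27.3) in PD1d/IL-33, 14.7% (11.7 to 18.1) in orthogonal day 5, 13.2% (10.8 to 15.9) in orthogonal day 12 and 12.6% (11.3 to 14) in orthogonal day 26. They were 7.68% (5.63 to 10.2) with PD1d/IL-2v and 2.38% (1.23 to 4.11) in untransduced day 5. The 2 small controls had 6.41% (2.11 to 14.3) and 2.38% (0.0603 to 12.6), intervals that overlap most others. Of 1178 myeloid cells, none had both, with an upper limit of 0.313%, while 2.97% had Gzma and 0.255% had Gzmk. The product of those single shares was 0.00757%, so finding none cannot serve as a background for the CD8 T shares. Median depth before thinning was 6090 UMIs in the CD8 T gate and 9581 in the myeloid gate.

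The singly positive cells shifted between the orthogonal days. On day 26 the orthogonal gate was 48.9% Gzmk alone and 3.4% Gzma alone, whereas on day 5 it was 10.2% Gzmk alone and 28.9% Gzma alone. Day 12 had 6.88% and 17.9%. PD1d/IL-33 had 32% Gzmk alone and 12.3% Gzma alone, and PD1d/IL-2v the reverse order, with 6.46% and 15%. At 2000 UMIs a cell without a UMI of a gene may still express it, and unthinned shares of doubly positive cells were higher, at 37.7% in PD1d/IL-33 and 19% in orthogonal day 26.

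The granzymes were not exclusive of each other. In each of the 8 libraries more CD8 T cells had both than the product of the single shares, from 1.19 times in PD1d/IL-33 to 2.39 times in PD1d/IL-2v among the libraries with over 100 CD8 T cells. In orthogonal day 12, 42.5% of cells with Gzma had Gzmk, against 9.98% of cells without Gzma. In orthogonal day 26 the values were 78.7% and 58.2%. The gate mixes cell states, and what part of this the mixture accounts for was not tested. In NK cells, Gzma was in 83.8% to 97.2% of cells and both were in 1.92% to 7.34%.

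**Figure D4:**
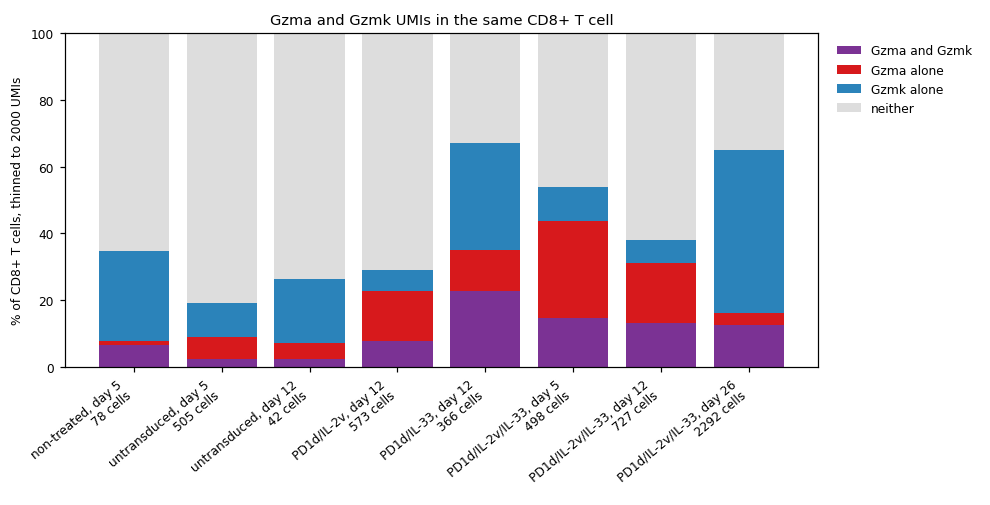
Percent of CD8 T cells with UMIs of both Gzma and Gzmk, of either alone or of neither, after thinning each cell to 2000 UMIs, in each library. Gzmk-alone cells are 48.9% of the orthogonal day 26 gate, and Gzma-alone cells are 28.9% of orthogonal day 5.

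Other pairs showed the effector set to be rarer in single CD8 T cells than in NK cells. Gzmb, the granzyme that activates caspases, occurred with Prf1 in 2.38% to 12.9% of CD8 T cells by library and 24.3% to 50.4% of NK cells. Gzma with Prf1 was in 1.39% to 9.44% of CD8 T cells and 40.5% to 61.2% of NK cells. Gzmb with its inhibitor Serpinb9 was in 2.56% to 18.9% of CD8 T cells, with the top value in orthogonal day 5.

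The Gzma and Gzmk classes were profiled for the genes the classes had not used, in the 5 engineered libraries. Gzmc and Gzmf, granzymes of strongly stimulated mouse T cells, lay in cells with Gzma alone and in cells with neither, and were low where Gzmk was present, in the 4 libraries other than PD1d/IL-33, where neither gene passed 15.7 CPM in any class. In orthogonal day 12, Gzmc was at 1111 CPM with Gzma alone and 903 CPM with neither, but at 60.4 CPM with both and 5.29 CPM with Gzmk alone. In PD1d/IL-2v the Gzmc values were 657, 278, 2.93 and 9.71 CPM. In orthogonal day 5 they were 304 and 73.9 CPM with no UMI in either class that had Gzmk, and in orthogonal day 26 they were 87.6, 14.3, 1.28 and 0.729 CPM. Gzmf in orthogonal day 12 was at 1925 CPM with Gzma alone and 1085 CPM with neither, against 81.1 and 2.64 CPM with both and with Gzmk alone.

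Gzmb followed Gzma instead. In orthogonal day 26 it was at 1199.8 CPM with both and 1293 CPM with Gzma alone, against 346 CPM with Gzmk alone and 199 CPM with neither, and both classes with Gzma were above both without in each of the 5 libraries. Serpinb6b had its highest level with Gzma alone in 4 of the 5, reaching 831 CPM in orthogonal day 5 and 622 CPM in orthogonal day 26, where Gzmk alone had 162 and 99.5 CPM. In orthogonal day 12 it was highest with both, at 282 CPM. Serpinb9 was lowest with Gzmk alone or with neither in each library. Prf1 had no fixed place, being highest with Gzma alone in 4 libraries and with Gzmk alone, at 182 CPM, in orthogonal day 12. The T-box factor gene Eomes was at 125 and 151 CPM in the classes with Gzmk on day 26, 104 CPM with Gzma alone and 70.1 CPM with neither, and the contrast was smaller in PD1d/IL-33, at 153, 137, 111 and 98.3 CPM. The classes held 37 to 1120 cells, so the smaller ones rest on few cells. They kept the cells with an NK receptor UMI, which held 41% of the gate's Gzma UMIs in PD1d/IL-2v and 38.5% in orthogonal day 12. The part of those cells in the class profiles was not tested.

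**Figure D5:**
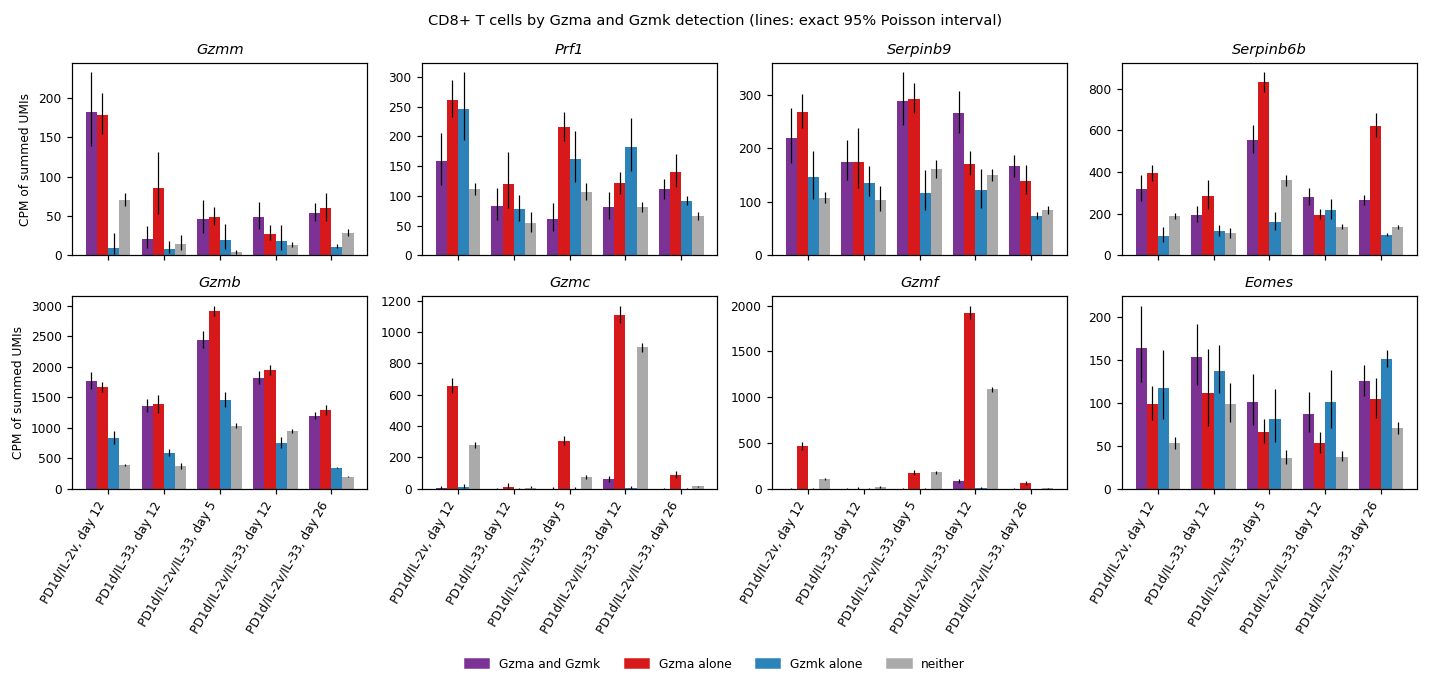
Level, in CPM, of other granule and regulator genes in CD8 T cells with both Gzma and Gzmk, with either alone and with neither, in the 5 engineered libraries. Outside PD1d/IL-33, Gzmc and Gzmf are lower in both classes with Gzmk than in those without it, and Gzmb is high in both classes with Gzma.

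Around the members, genes of the same machinery were counted in CD8 T cells. Of 20 genes of granule processing and exocytosis, 17 to 19 were measured in each comparison and none was past 2-fold in any of the 8. Of all measured genes, 0.709% to 7.78% were past 2-fold by comparison, so a count of 0 lies near the background. More of the other granzymes than that were past 2-fold. All 6 measured were past 2-fold higher in orthogonal day 12 over untransduced day 12, and 5 of 6 over each of PD1d/IL-2v, PD1d/IL-33 and orthogonal day 5. All 6 were past 2-fold lower in orthogonal day 26 over day 12, 4 of 5 were lower in PD1d/IL-33 over PD1d/IL-2v, and 4 of 5 were higher in untransduced over non-treated. In orthogonal over untransduced day 5, Gzmb was the 1 of 5 past 2-fold, with a log2 ratio of 1.82.

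Among 6 factors of the cytotoxic programme, Eomes was the 1 that passed 2-fold in any comparison, with log2 ratios of 1.04 in orthogonal over untransduced day 5, 1.25 at day 12, -1.20 in orthogonal day 12 over PD1d/IL-33, 1.09 in day 26 over day 12 and -1.88 in untransduced over non-treated. Of 5 other death effectors, Ifng, the gene of interferon gamma, was at 2.74 in orthogonal over untransduced day 5 and at -3.13 in orthogonal day 12 over day 5. In the former, 1 other death effector was past 2-fold lower, and in PD1d/IL-33 over PD1d/IL-2v 2 of 5 were, each beside 1.46% of all genes. Single death effectors also passed 2-fold in other comparisons, in either direction. Of 13 other serpins 2 to 4 were measured, with Serpina3g at -1.50 in PD1d/IL-33 over PD1d/IL-2v and Serpinb6a, the neighbour in name of Serpinb6b, at -1.02 in orthogonal over untransduced day 5, where 2 of 3 measured were past 2-fold lower.

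Across the 8 libraries the CD8 T levels of the members formed no single pattern. Gzma and Gzmk had a Pearson correlation of -0.05 on log2 values, Gzmk and Prf1 one of -0.74, and Prf1 one of 0.79 with Serpinb6b and of 0.79 with Serpinb9b. These are descriptions over 8 points that share libraries and differ in depth. Among 2527 genes with a mean of at least 50 CPM, those most like Gzma were Rpl36al (0.99), Rpl24 (0.93) and Ndufv3 (0.92), those most like Gzmk were Hmha1 (0.95), Sh2d1a (0.93) and Gm26740 (0.91), and those most like Prf1 were Rexo2 (0.96), Eif4a1 (0.94) and Nhp2 (0.92).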

How the data were processed

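The authors deposited a gene by barcode table of UMI counts for the 8 libraries of a 5′ droplet assay, and the submitters' processing notes name Cell Ranger 2.2.0 and the GRCm38 build. There was 1 library per condition and day. The cell filter followed the study's methods for this experiment and kept barcodes with 2000 to 40000 UMIs and 500 to 6000 detected genes, with 5% to 60% ribosomal UMIs (113 genes) and under 10% mitochondrial UMIs (13 genes). No doublet caller was run, so doublets remain. Depth was 1387032 to 24917112 UMIs per library.

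Gates used raw marker counts. UMIs were summed per gate and library and scaled to CPM. Intervals of levels came from exact Poisson limits, and those of cell shares were Clopper-Pearson. No count model or test was applied, since each condition and day is 1 library. Thinning drew 2000 UMIs from each cell without replacement, separately for each gene pair. The named genes were the 10 members, at most 4 of each list by absolute log2 ratio, and the 3 genes most like Gzma, Gzmk and Prf1. Gzmb, Gzmc, Gzmf and Eomes were named in the class profiles and the Foxp3 split after their values were seen. The members and lists were chosen with earlier results of these data known. The splits by Foxp3 and by NK receptor UMIs, the class profiles, the Gzma concentration, the promoter motifs and the alternative with barcodes found in 1 library alone were chosen after seeing the data. Promoters were aligned with Biopython 1.88.

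The alternatives were other gates, the cell filter of a later experiment of the study (500 to 12000 UMIs, 400 to 3000 genes), added CPM, minimum counts, thinning depths, weights and TMM factors from edgeR 4.0.16. On simulated counts for orthogonal day 12 over PD1d/IL-2v (9105 genes, 200 changed), 95% of changed and 95.6% of unchanged genes lay within their interval. The simulated counts were Poisson, as the intervals assume, so this checked the calculation alone. Spread between cells was not simulated. The scripts ran in Python 3.11.15 (pandas 2.3.3, scipy 1.17.1, numpy 2.4.6, matplotlib 3.10.9) and R 4.3.3.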

Additional observations from a re-analysis of the deposited data

Results flagged for a closer look

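Serpinb9b, the paralog of the granzyme B inhibitor, went opposite ways in CD8 T and NK cells between orthogonal day 26 and day 12, with log2 ratios of -0.54 in CD8 T cells and 0.78 in NK cells, where the medians of all genes were 0.12 and 0.21. This was picked out because the effects in the gates had opposite signs and both were over 0.5 in size, and it was 1 of 72 pairs looked at. The difference between the gates was not tested, since each day is 1 library. In CD8 T cells of day 26, 36.7% of the Serpinb9b UMIs lay in 32 cells with an NK receptor UMI.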

How the results depend on the processing

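No paired analysis was possible because each condition and day is 1 library, and for the same reason no library could be left out within a group. Of 800 alternative values of the CD8 T log2 ratios, 627 stayed within the counting interval of the reported value and 156 moved beyond it. The other 17 changed sign although the whole reported interval had the same sign. Sign changes of ratios whose interval held both signs were counted among those that stayed or moved. The other minimum count alters which genes are measured and not the ratio, so its 79 values stayed by construction. Under the later cell filter 37 of 79 stayed, 35 moved and 7 changed sign. In NK cells 65 of 72 stayed and 7 moved. The count of members past 2-fold differed in 13 of 81 alternatives, in 7 of them by over 1.5 times. For orthogonal over untransduced day 12 it was 2 in place of 1 under the cell filter of the later experiment, under the strict CD8 gate, without cells with Ncr1 or Klrb1c UMIs and with 1 CPM added. For orthogonal day 12 over PD1d/IL-2v it was 2 in place of 1 without those cells and with 1 CPM added, and for orthogonal day 26 over day 12 it was 1 in place of 2 without those cells.

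Among ratios whose whole interval had the same sign, signs changed as follows. Under the later cell filter, Serpinb6b in orthogonal over PD1d/IL-2v was 0.11, Gzma, Prf1 and Ctsw in orthogonal over PD1d/IL-33 were -0.12, -0.01 and 0.06, Srgn was 0.08 in PD1d/IL-33 over PD1d/IL-2v and 0.00 in orthogonal day 12 over day 5, and Ctsw in untransduced over non-treated was 0.17. Without cells with NK receptor UMIs, Gzma was -0.17 in orthogonal over PD1d/IL-33 and -0.78 in untransduced over non-treated. With TMM factors Nkg7 in orthogonal over PD1d/IL-2v was 0.05 and Srgn in orthogonal day 12 over day 5 was 0.11. Against untransduced day 5, orthogonal day 12 had Gzmk at 0.35, Serpinb9 at -0.25, Nkg7 at -0.00 and Srgn at -0.08. With equal weight per cell, Prf1 in orthogonal over untransduced day 5 was -0.00, and without cycling cells Ctsw in untransduced over non-treated was 0.00. Ratios whose interval held both signs are not listed, such as Serpinb9 in orthogonal over untransduced day 5, which was -0.26 under the later cell filter. The cause was not tested.

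The share of doubly positive cells moved with depth. At 1000 UMIs it was 0.99% in untransduced day 5, 4.36% in PD1d/IL-2v, 11.7% in PD1d/IL-33, and 7.83%, 7.02% and 8.46% in orthogonal days 5, 12 and 26. At 4000 UMIs it was 32.1% in PD1d/IL-33 and 23.9%, 16.1% and 15.4% in the orthogonal days. Without thinning it was 4.95% in untransduced day 5, 12.9% in PD1d/IL-2v, 37.7% in PD1d/IL-33, and 30.7%, 23.5% and 19% in the orthogonal days. Orthogonal day 5 was at 20.1% under the later filter and 18.6% without cycling cells. Barcodes found in 1 library alone were an alternative added after seeing the data. With them, Gzmm stayed the 1 member past the threshold in orthogonal day 12 over PD1d/IL-2v, and Serpinb9b stayed just inside it. The likeness lists over the 6 libraries with over 100 CD8 T cells kept Rpl36al with Gzma (0.97), Hmha1 with Gzmk (0.98) and Eif4a1 with Prf1 (0.97).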
